A study of Homo sapiens with 4 samples.

Results

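DNA mismatch repair genes were followed in HCT116, an established human colorectal carcinoma line that is known for defective mismatch repair and unstable microsatellites. The list held MSH6, MSH3, MLH3, PMS1, PMS2, EXO1 and MBD4, and a probe set, the group of short probes that reports 1 transcript or a set of related transcripts, counted as a member when the platform annotation tied it to only 1 gene symbol and that symbol was on the list. This gave 20 of the 54675 probe sets of the array. They reported 6 of the 7 genes, of 19775 genes with a probe set of their own, because both probe sets that name PMS2 also name its pseudogene PMS2CL and were not read as PMS2. The arrays were 1 for cells with KSR1 hairpin #1, 1 for KSR1 hairpin #2, 1 for the non-targeting hairpin shCTRL and 1 for untransfected cells, all from the same line without replicate arrays. Hairpin vectors had been introduced with a lipofection reagent and clones selected with puromycin, so the 3 vector arrays share treatments that the untransfected cells lacked, and no source used here says whether an array stands for 1 clone or a pool. KSR1 is a scaffold of the RAF, MEK and ERK kinases, and the study asked what its depletion does to transcripts.

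Mismatch repair corrects bases and small loops that the replicative polymerases leave mispaired. MutS heterodimers find the error, MSH6 lending its dimer a preference for base mismatches and single-base loops and MSH3 for larger loops. MutL heterodimers then license removal of the new strand: PMS2 and MLH3 belong to dimers that can nick DNA, and PMS1 forms a dimer whose part in human repair is small. The exonuclease EXO1 digests the strand, and polymerase delta, its clamp PCNA and a ligase fill and seal the gap. MBD4 is a glycosylase that removes thymine mispaired with guanine at methylated CpG sites, a base excision step that is tied to mismatch repair proteins.

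The deposited values were linear intensities with medians from 50.7 to 52.0 on the 4 arrays. They were analysed as log2(intensity + 16), the scale of every log2 value and log2 difference given here, and dim probe sets differ less on it than in intensity. A probe set passed the filter on dim signals when its mean log2 value over the 4 arrays reached the median of 6.08, near an intensity of 51.6. The targeted gene KSR1, on its brightest probe set, had intensities of 141 with hairpin #1 and 171 with hairpin #2, against 211 in shCTRL and 209 in untransfected cells. EPCAM, an epithelial adhesion molecule, had intensities from 7855 to 8119, and all 9 epithelial markers passed the filter. VIL1 did so narrowly, at intensities between 56.0 and 62.6. KRT20 ran from 52.5 with hairpin #1 to 275 with hairpin #2. CDX2 lay between 79.9 and 131. The summed intensities of the 9 were 35738 with hairpin #1 and 46382 with hairpin #2, against 38564 in shCTRL and 38258 in untransfected cells. Of 8 fibroblast markers measured 3 passed, COL1A1 at 372 to 433 being the brightest, and the summed intensities of the 8 were 590 with hairpin #1 and 611 with hairpin #2, against 638 in shCTRL and 666 in untransfected cells. Of 5 leukocyte markers measured 0 passed, and the leukocyte antigen PTPRC stayed between 15.5 and 17.4. Actin signal from the 3' end over that from the 5' end, which is read as a measure of RNA integrity, was 2.01 with hairpin #1, 2.22 with hairpin #2 and 2.09 in shCTRL, against 2.68 in untransfected cells, and the same ratio for GAPDH lay between 1.14 and 1.19.

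The promoters of MSH6 and PMS1 are shown because these genes had the widest ranges among the members that passed the filter. Each window runs from 250 bases before to 50 bases after a RefSeq transcript start on GRCh38.p14. Capitals mark matches, on either strand, to 3 motifs: the E2F words TTTCCCGC, TTTGGCGC, TTTCGCGC and TTTGCCGC, the CCAAT box CCAAT and the GC box GGGCGG. MSH6 is shown at chr2:47782895-47783194 and PMS1 at chr2:189784200-189784499, both on the plus strand.
MSH6: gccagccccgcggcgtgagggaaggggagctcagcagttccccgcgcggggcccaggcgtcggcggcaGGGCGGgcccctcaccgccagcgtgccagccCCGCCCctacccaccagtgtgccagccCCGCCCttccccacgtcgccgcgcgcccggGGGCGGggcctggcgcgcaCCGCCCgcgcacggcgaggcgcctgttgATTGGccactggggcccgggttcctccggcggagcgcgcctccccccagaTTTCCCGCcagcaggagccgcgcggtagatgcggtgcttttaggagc
PMS1: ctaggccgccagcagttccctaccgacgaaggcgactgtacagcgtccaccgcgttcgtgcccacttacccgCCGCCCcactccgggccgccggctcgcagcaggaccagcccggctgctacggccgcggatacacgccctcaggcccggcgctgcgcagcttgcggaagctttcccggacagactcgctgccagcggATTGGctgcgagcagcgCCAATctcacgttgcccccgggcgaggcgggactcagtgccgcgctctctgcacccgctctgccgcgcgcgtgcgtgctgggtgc

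The MSH6 window shown held 5 GC boxes, 1 CCAAT box beginning at -47 and 1 E2F word beginning at 3, counted from 0 at the start base. Windows at later MSH6 starts, not shown, held GC boxes but no CCAAT box and no E2F word. The PMS1 window held 2 CCAAT boxes, at -52 and -35, 1 GC box at -178 and no E2F word. Its G and C content was 72.0%, against 78.0% in the MSH6 window shown. Of the 12 windows that the table lists for the 7 genes, some of which overlap, 5 held an E2F word, 5 a CCAAT box and 10 a GC box. Over all 35116 windows of this length those shares were 3.31%, 34.6% and 45.0%. By gene, E2F words were found in at least 1 window of EXO1, MSH6, MSH3 and PMS2 and in none of PMS1, MBD4 and MLH3. A match is a run of letters in a window, and nothing about binding in these cells was drawn from it.

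MSH6, the mismatch-recognition subunit, differed most among the members, and it differed between vector-bearing and untransfected cells. On probe set 202911_at its intensity was 1337 with hairpin #1, 1224 with hairpin #2 and 1250 in shCTRL, against 1993 in untransfected cells. On 211450_s_at it was 591 with hairpin #1, 511 with hairpin #2 and 521 in shCTRL, against 924 in untransfected cells. On both probe sets the 3 vector arrays lay close together, within 0.13 and 0.20 log2 units, and all lay below the untransfected array.

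Relative to untransfected cells the log2 differences on 202911_at were -0.57 with hairpin #1, -0.70 with hairpin #2 and -0.67 in shCTRL. On 211450_s_at they were -0.63 with hairpin #1, -0.84 with hairpin #2 and -0.81 in shCTRL. In percent of the untransfected intensity the 3 vector arrays differed by -32.9%, -38.6% and -37.3% on the first probe set and by -36.1%, -44.7% and -43.6% on the second, in the same order. All 3 comparisons share the untransfected array, so they are not independent of each other, and with 1 array a group none has a test. Fewer cells making a transcript and less transcript per cell cannot be told apart in bulk RNA, here and below. The rule that all 3 vector arrays lie at least 0.5 log2 units (1.41-fold) below untransfected, chosen after the values were seen, was met by 2 of the 13 member probe sets that passed the filter, both of MSH6, and by 0.677% of all 27307 probe sets that passed. The reverse rule was met by 0 members and by 0.791% of all. The actin 3' to 5' ratio and, by less, the summed fibroblast markers were also highest in the untransfected array, and their part in the MSH6 difference was not tested.

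Between KSR1 hairpins and shCTRL, MSH6 differed little. The log2 differences from shCTRL were 0.10 and 0.18 with hairpin #1 and -0.03 and -0.03 with hairpin #2 on the 2 probe sets, so the hairpins lay on opposite sides of shCTRL. When both hairpin arrays were set against both other arrays with limma, which moderates each probe set's variance across the table, the differences were -0.30 (SE 0.24, adjusted p = 0.74) on 202911_at and -0.33 (SE 0.29, adjusted p = 0.76) on 211450_s_at. Without the untransfected array they turned to 0.033 and 0.075. The other MSH6 probe sets, 1569034_a_at and 211449_at, were dim, with intensities from 10.5 to 18.0, and did not pass the filter.

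**Figure D1:**
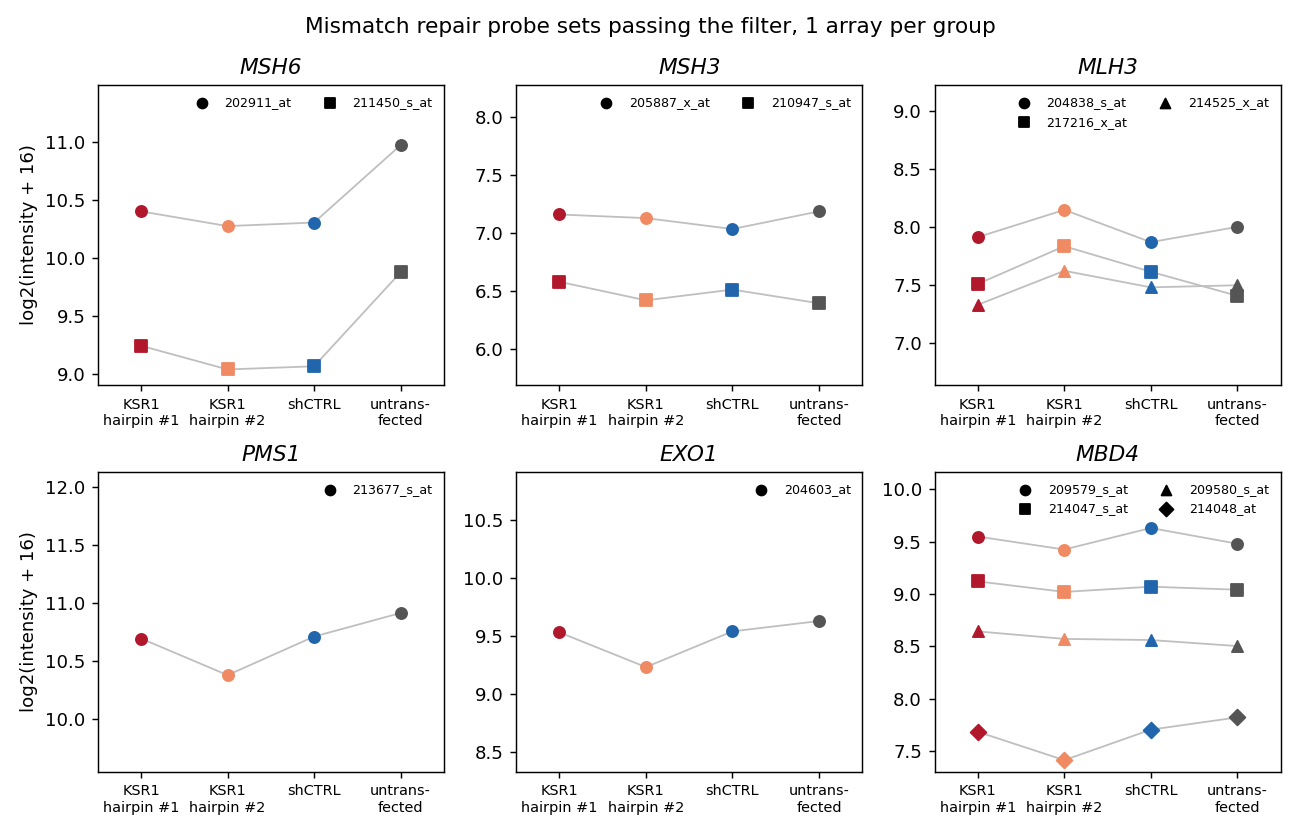
Level of each mismatch repair probe set that passed the filter on the 4 arrays, as log2(intensity + 16), with 1 point an array, 1 marker shape a probe set and grey lines joining the points of 1 probe set. Every panel spans the same height in log2 units or nearly so, and MSH6 stands at 10.97 and 9.88 in untransfected cells, above the 3 vector arrays on both probe sets.

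MSH3, the subunit for larger loops, was nearly level across the arrays. Its brighter probe set, 205887_x_at, had intensities of 127 with hairpin #1 and 124 with hairpin #2, against 115 in shCTRL and 130 in untransfected cells. On 210947_s_at the intensities were 79.7 with hairpin #1 and 69.7 with hairpin #2, against 75.4 in shCTRL and 68.2 in untransfected cells. The hairpin arrays overlapped the others on both, and the ranges of 0.15 and 0.18 log2 units were the narrowest of the members that passed the filter, apart from 2 probe sets of MBD4. The limma differences were 0.03 (SE 0.11, adjusted p = 0.94) and 0.05 (SE 0.11, adjusted p = 0.93). The third probe set, 229662_at, lay between 6.37 and 9.04 in intensity and did not pass the filter. The suffix _x_at marks probe sets whose probes may also bind other transcripts, which holds here for 205887_x_at, for 2 probe sets of MLH3 and for 1554743_x_at, a dim probe set of PMS1.

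The MutL genes MLH3 and PMS1 differed in opposite directions in the hairpin #2 array. MLH3, whose dimer also acts in meiotic crossing-over, had intensities on 204838_s_at of 225 with hairpin #1 and 267 with hairpin #2, against 217 in shCTRL and 240 in untransfected cells. On 217216_x_at they were 166 with hairpin #1 and 212 with hairpin #2, against 180 in shCTRL and 153 in untransfected cells, and on 214525_x_at 145 and 181, against 162 in shCTRL and 164 in untransfected cells. Hairpin #2 was the highest of the 4 arrays on all 3 MLH3 probe sets. Of all probe sets that passed the filter, 28.7% had their highest value there. Hairpin #2 exceeded hairpin #1 by 0.23, 0.33 and 0.29 log2 units on 204838_s_at, 217216_x_at and 214525_x_at, and shCTRL by 0.28, 0.22 and 0.14. Hairpin #1 differed from shCTRL by 0.04, -0.11 and -0.15, in the same order. Over both hairpin arrays the limma differences were 0.09 (SE 0.13), 0.16 (SE 0.16) and -0.01 (SE 0.13), with adjusted p values of 0.85, 0.79 and 0.99.

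PMS1 was lowest with hairpin #2. On 213677_s_at, its only probe set that passed the filter, the intensity was 1638 with hairpin #1 and 1313 with hairpin #2, against 1657 in shCTRL and 1910 in untransfected cells. Both hairpin arrays lay below both others, but hairpin #1 was only 0.02 log2 units below shCTRL (difference -0.02), while hairpin #2 differed by -0.33 from shCTRL and -0.53 from untransfected cells. Over both hairpin arrays the limma difference was -0.28 (SE 0.15, adjusted p = 0.67). On a dim PMS1 probe set, 236609_at, both hairpin arrays lay above both others, with intensities of 63.7 with hairpin #1 and 52.0 with hairpin #2, against 37.2 in shCTRL and 36.8 in untransfected cells. Its mean log2 value of 5.96 was under the filter, it was not tested, and the probe sets of PMS1 gave no common direction for the hairpin arrays against the others. Hairpin #2 was below hairpin #1 on all 5, by log2 differences between -0.32 and -0.01. The other 3 PMS1 probe sets lay between 16.9 and 31.1.

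EXO1, the exonuclease that acts in mismatch repair and in resection of DNA ends, was reported by 204603_at alone. Its intensity was 725 with hairpin #1 and 586 with hairpin #2, against 729 in shCTRL and 776 in untransfected cells. Only hairpin #2 stood apart, by -0.31 log2 units from shCTRL and -0.40 from untransfected cells, and hairpin #1 was within 0.01 of shCTRL (difference -0.01). The limma difference of both hairpin arrays was -0.20 (SE 0.14, adjusted p = 0.70). Hairpin #2 was the lowest of the 4 arrays on 7 of the 13 member probe sets, those of EXO1 and PMS1, 2 of MSH6 and 3 of MBD4, and on 25.5% of all that passed.

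MBD4, the thymine glycosylase, had 4 probe sets above the filter, which did not share a direction. The brightest, 209579_s_at, had intensities of 732 with hairpin #1 and 671 with hairpin #2, against 776 in shCTRL and 698 in untransfected cells. On 214047_s_at they were 540 with hairpin #1 and 503 with hairpin #2, against 521 in shCTRL and 511 in untransfected cells, and on 209580_s_at 384 and 364, against 362 in shCTRL and 347 in untransfected cells. These probe sets ranged over 0.21, 0.10 and 0.14 log2 units. The dimmest, 214048_at, had intensities of 190 with hairpin #1 and 155 with hairpin #2, against 193 in shCTRL and 210 in untransfected cells, and was lowest with hairpin #2 in the way of EXO1 and PMS1. The limma differences in the same order of probe sets were -0.07, 0.01, 0.08 and -0.21, with SE between 0.10 and 0.13 and adjusted p values of 0.88, 0.98, 0.84 and 0.69.

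**Figure D2:**
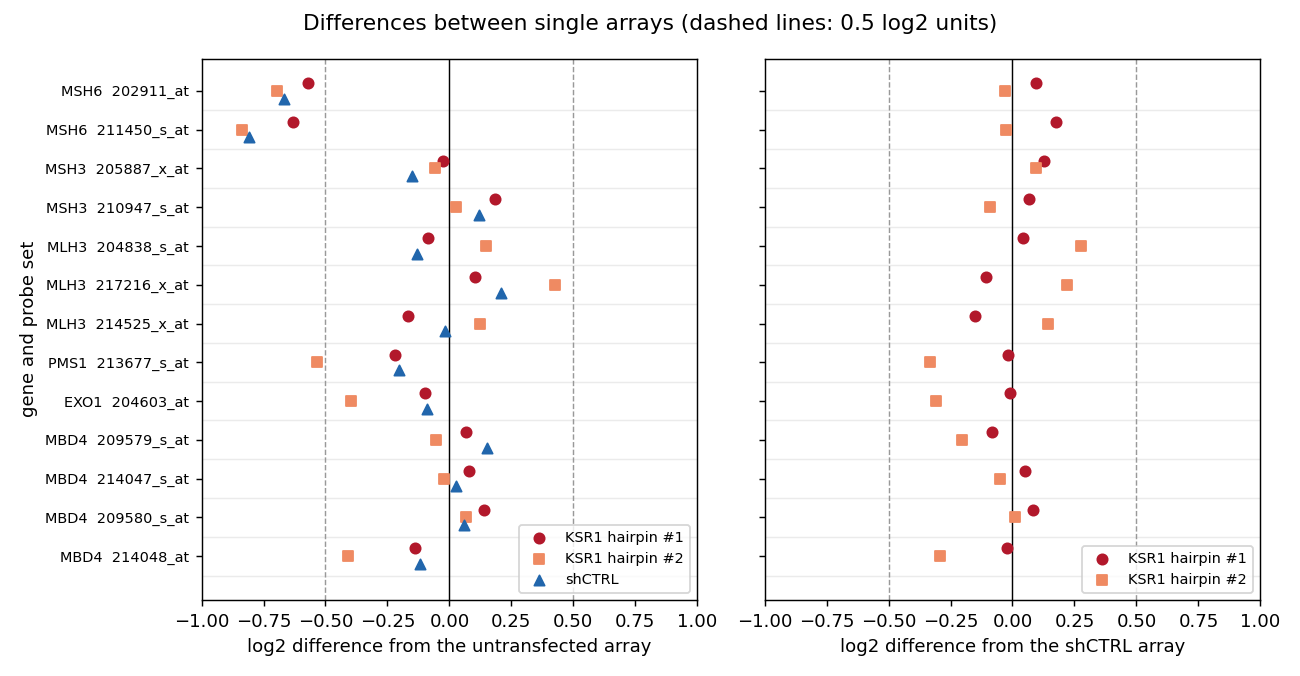
Log2 differences of single arrays for the 13 member probe sets that passed the filter, from the untransfected array on the left and from the shCTRL array on the right. Points are single arrays and dashed lines mark 0.5 log2 units. MSH6 lies beyond the line in all 3 vector arrays on the left, from -0.57 to -0.84, and no member lies beyond it on the right.

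Counts over the members were set beside the same counts over the whole table. The 4 arrays ranged over at least 0.5 log2 units for 3 of the 13 member probe sets, those of MSH6 and PMS1, and for 21% of all. At a distance of 0.5 log2 units from shCTRL, 0 of the 13 member probe sets differed with hairpin #1, where 4.47% of all probe sets did, and 0 with hairpin #2, where 8.89% did. Relative to untransfected cells 2 were lower with hairpin #1 (2.71% of all), 3 with hairpin #2 (4.27%) and 2 in shCTRL (2.42%), and 0 were higher in any of them, where 4.01%, 6.32% and 3.23% of all were. The 2 were those of MSH6, and the third was PMS1 213677_s_at. At 1 log2 unit no member probe set differed between any pair of arrays. Both hairpin arrays lay below both others for 3 members, EXO1, PMS1 213677_s_at and MBD4 214048_at (17.6% of all), and above for MBD4 209580_s_at (22.8%). The gaps that part the groups in these 4 were 0.009, 0.017, 0.021 and 0.011 log2 units, smaller than the median absolute difference of 0.14 between shCTRL and untransfected cells over all probe sets, and after median centring of the arrays 0 members lay below.

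The limma comparison of both hairpin arrays with both others called 0 of the 13 members in either direction at an adjusted p under 0.05, and 0 of all 27307 probe sets (0%). At an unadjusted p under 0.05 there were 0 members, the lowest being 0.13 for PMS1, and 2014 probe sets in all (7.38%). The median difference was -0.01 over the members and 0.02 over all probe sets. This fit has 2 residual degrees of freedom, and the spread behind its p-values is that of the hairpins from each other and of shCTRL from untransfected cells, not that of cultures of 1 kind. An exact permutation of 2 arrays against 2 cannot go below p = 0.33.

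Hairpin #2 and hairpin #1 were then set against each other. Hairpin #2 was lower than hairpin #1 on 10 of the 13 member probe sets, the exceptions being the 3 of MLH3, and 50.9% of all probe sets were lower. The median difference was -0.12 over the members and -0.0041 over all. None reached 0.5 log2 units in either direction, where 3.38% of all were lower and 4.00% higher by that much. Other genes of DNA replication and repair lay on the same side: of 21 S phase and E2F target genes 18 were lower with hairpin #2 than with hairpin #1 (median -0.16), of 17 partners of mismatch repair 13 (median -0.19) and of 8 end resection genes 7 (median -0.18), whereas 48.4% of all 12478 genes were lower (median 0.0069). Of 14 base excision repair genes 8 were lower (median -0.01). Epithelial markers went the other way, with 1 of 9 lower and a median of 0.47. The part of these genes' shift in the values of EXO1 and PMS1 was not tested.

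The other genes of the pathway came from 5 lists, each gene taking its brightest probe set. By limma 0 of their measured members passed in either direction, as for all genes (0%). The partners were the clamp, its loader, replication protein A, polymerase delta, the ligase LIG1 and recruitment factors. Of these 17 genes 3 were higher in both hairpin arrays than in either other array and 1 was lower, where 22.5% and 18.4% of all genes did, and the median difference was 0.05 over the list and 0.02 over all genes. The largest belonged to the helicase MCM9, which works with mismatch repair proteins, with intensities of 216 with hairpin #1 and 218 with hairpin #2, against 159 in shCTRL and 160 in untransfected cells. Its log2 difference was 0.41 (SE 0.09, limma adjusted p = 0.66). SETD2, the methyltransferase whose histone mark recruits MSH6 to chromatin, differed by 0.19 (SE 0.10, limma adjusted p = 0.67), and the polymerase subunit POLD1 by 0.20 (SE 0.20, limma adjusted p = 0.79). The clamp PCNA, chosen after its values were seen, had intensities of 7868 with hairpin #1 and 7332 with hairpin #2, against 7487 in shCTRL and 7936 in untransfected cells.

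For the lists that follow, the shares over all genes were again 22.5% with both hairpin arrays above both others and 18.4% below. The median difference over all genes was 0.02. Base excision repair genes, the pathway of MBD4, had a median difference of 0.07, with 5 of 14 above and 2 below. The ligase LIG3 (0.30, SE 0.10), the glycosylase TDG, which shares the thymine-guanine mispair with MBD4 (0.28, SE 0.15), and the glycosylase NTHL1 (0.24, SE 0.11) led it, with limma adjusted p values of 0.66, 0.67 and 0.67. End resection genes, the other field of EXO1, had a median of 0.03 with 1 of 8 above and 0 below. The helicase WRN differed by 0.30 (SE 0.16), the topoisomerase TOP3A by -0.15 (SE 0.12) and its partner RMI1 by -0.09 (SE 0.15). S phase and E2F target genes had a median of 0.01 with 1 of 21 above and 4 below, and differed among themselves: cyclin E2 (CCNE2) by -0.42 (SE 0.13), the ribonucleotide reductase subunit RRM1 by -0.35 (SE 0.11) and the origin-licensing factor CDC6 by 0.32 (SE 0.14), each with a limma adjusted p of 0.66 or 0.67. The meiotic MutS gene MSH4 was dim, with intensities from 17.6 to 32.9.

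The rule met by MSH6, chosen after its values were seen, was also applied to these lists. Of the 17 partners, 14 base excision, 8 resection and 21 S phase genes, 0 lay at least 0.5 log2 units below untransfected cells in all 3 vector arrays, against 0.649% of all genes. With so low a share over all genes, a count of 0 in lists of this size does not set them apart. The median of the 3 vector arrays minus untransfected cells was 0.04 for the partners, 0.14 for base excision, 0.02 for resection, -0.01 for S phase genes and 0.02 for all genes. For the 6 mismatch repair genes it was -0.14, with MSH6 at -0.64. On their brightest probe sets 5 of 6 were lower, where 45.4% of all genes were. That count depends on the probe set taken. MLH3 stood at -0.02, 0.25 and -0.02 on 204838_s_at, 217216_x_at and 214525_x_at. MSH3 stood at -0.08 on 205887_x_at and 0.11 on 210947_s_at. MBD4 stood at 0.05, 0.03, 0.09 and -0.22 on 209579_s_at, 214047_s_at, 209580_s_at and 214048_at.

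**Figure D3:**
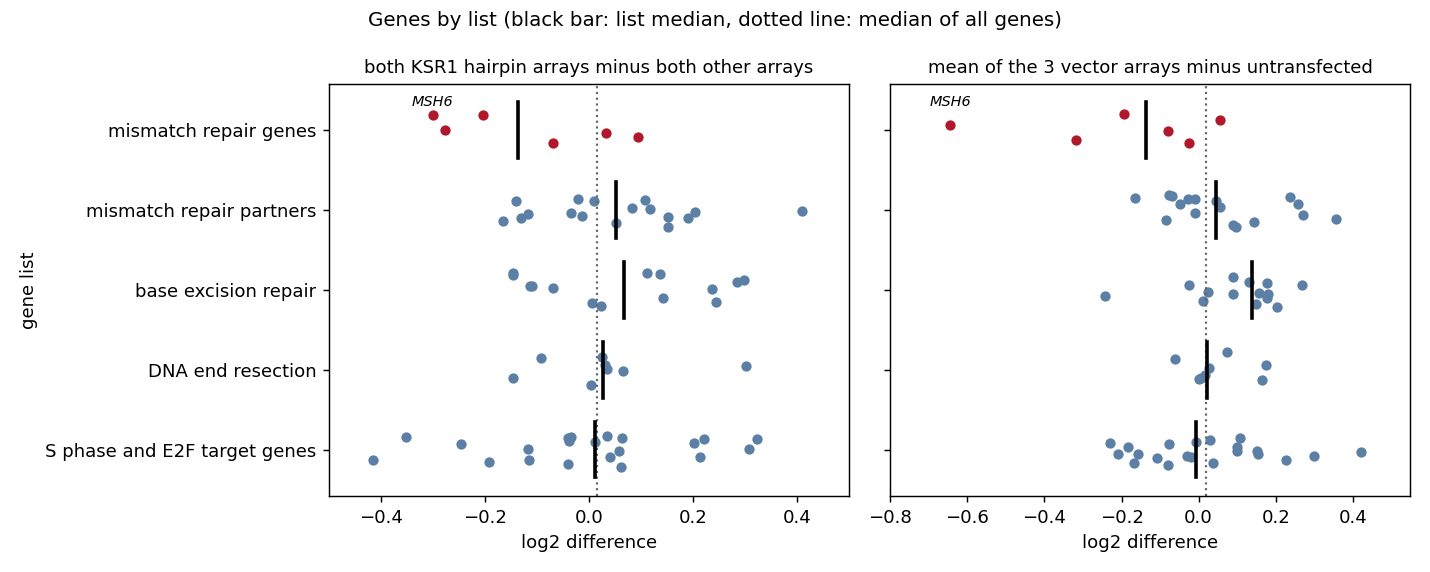
Log2 differences of genes by list, for both KSR1 hairpin arrays minus both others on the left and for the mean of the 3 vector arrays minus untransfected on the right. Each point is a gene on its brightest probe set, black bars are list medians and the dotted line is the median of all genes. MSH6 lies at -0.64 on the right, below every other gene of the 5 lists drawn.

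Some members share a promoter region with a gene on the opposite strand. RefSeq starts of ORMDL1, a regulator of sphingolipid synthesis, and IFT122, a transport protein of cilia, lie 111 bases from that of PMS1 and 276 bases from that of MBD4, and AIMP2 lies beside PMS2. On its brightest probe set ORMDL1 had intensities of 575 with hairpin #1, 598 with hairpin #2 and 671 in shCTRL, against 472 in untransfected cells. The limma difference of both hairpin arrays there was 0.06 (SE 0.19, adjusted p = 0.94). Untransfected cells were lowest on this probe set and on the dimmer 228801_at. On 227548_at hairpin #1 was lowest, at 162 against 177 in untransfected cells. For PMS1, untransfected cells were highest on 213677_s_at but lowest on the dim probe sets 236609_at and 1554743_x_at. No direction held for either gene as a whole. IFT122 on 220744_s_at had intensities of 237 with hairpin #1 and 271 with hairpin #2, against 261 in shCTRL and 270 in untransfected cells, and a limma difference of -0.06 (SE 0.11, adjusted p = 0.89).

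Genes with the most similar profiles were sought for the members whose brightest probe set ranged over at least 0.5 log2 units, which were MSH6 and PMS1. Likeness was the root mean square distance between log2 values centred on each gene's mean over the 4 arrays, so that all 12478 genes were ranked on 4 points only. Nearest to MSH6 were SPOCD1 (distance 0.02), the caveolar protein CAV2 (0.04) and CTB-49A3.2 (0.05). CAV2 stood at log2 11.91 with hairpin #1, 11.75 with hairpin #2 and 11.70 in shCTRL, against 12.44 in untransfected cells. Nearest to PMS1 were ITPRID2 (0.0069), the actin-binding SYNPO2 (0.02) and the zinc finger factor ZIC2 (0.02). SYNPO2, at log2 5.99 to 6.53, was also near the filter.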

How the data were processed

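Total RNA (2.5 micrograms, Trizol) was labelled with biotin by the 1-cycle kit, per the labels' protocols. The intensity values were deposited by the authors on a linear scale, 1 per probe set and array. No source used here gives their background correction, summary or normalization. The 62 control probe sets were left out of tests. Of the rest, 41091 had 1 symbol in the platform annotation, 1801 several and 11721 none, and 41037 matched a RefSeq gene by identifier. Values became log2(intensity + 16). Filtered probe sets (27307) were fitted with limma 3.58.1 in R 4.3.3 (lmFit, eBayes, Benjamini-Hochberg over all of them). The code of the fit was checked on simulated data with an equal spread for all probe sets and changes of at least 1 log2 unit. Those changes were larger than any limma difference of the members, so the check does not show what the fit can detect here. Single arrays were compared by size, without p-values. A gene in a list took its brightest probe set. Members and lists were chosen with earlier results of these data known. The text names all members, up to 3 genes a list by size of the difference, neighbours starting within 1000 bases on the other strand, and 3 nearest profiles a member. List members without a value were not analysed here. Arrays have no sequencing depth, and their number limits the precision.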

Additional observations from a re-analysis of the deposited data

How the results depend on the processing

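Filters, scalings, pseudocounts of 1 and 64, left-out arrays and 1 probe set per gene were tried, 11 alternatives in all besides a larger size rule. The limma comparison called 0 probe sets in each of them. Of 131 recomputed member differences 119 kept their sign and none passed the test, the lowest adjusted p being 0.51. Quantile normalization turned MBD4 214047_s_at to -0.030, and median centring turned MLH3 214525_x_at to 0.0084. Leaving out 1 array gave ranges of -0.63 to 0.033 for MSH6 202911_at, -0.73 to 0.075 for MSH6 211450_s_at, -0.042 to 0.11 for MSH3 205887_x_at, -0.034 to 0.13 for MSH3 210947_s_at, -0.022 to 0.21 for MLH3 204838_s_at, -0.0014 to 0.32 for MLH3 217216_x_at, -0.16 to 0.13 for MLH3 214525_x_at, -0.14 to 0.0065 for MBD4 209579_s_at and -0.035 to 0.065 for MBD4 214047_s_at. The others kept their sign, EXO1 between -0.35 and -0.053, PMS1 213677_s_at between -0.43 and -0.12, MBD4 214048_at between -0.35 and -0.079 and MBD4 209580_s_at between 0.040 and 0.11. Member probe sets with both hairpin arrays above both others, 1 as reported, were 3 without a filter and 0 after quantile normalization. Those below, 3 as reported, were 0 after median centring, since the gaps were smaller than the shifts. With 1 array left out, which makes parting easier by construction, the counts were 3 to 4 above, 4 without hairpin #1 and 3 without hairpin #2, shCTRL or untransfected cells, and 4 to 7 below, 7 without hairpin #1 and 6 without shCTRL. Genes whose probe sets shared a limma sign were 2 of 4 in the main setting and 3 of 4 after median centring. They were 1 of 5 without a filter and 1 of 2 with the filter at the 75th percentile. With an array left out they were 1 to 3, 1 without shCTRL or untransfected cells (alternatives for this count were chosen after seeing the data). Without a filter 1 member, the dim PMS1 probe set 236609_at, was 0.5 log2 units from shCTRL with hairpin #1. At 1 log2 unit the counts against untransfected cells were 0 with hairpin #1, 0 with hairpin #2 and 0 in shCTRL. Over the filters, scalings and pseudocounts the MSH6 differences of the vector arrays from untransfected cells stayed between -0.88 and -0.54. No paired analysis was possible because each group has 1 array and no replicate number links arrays.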
